A study of Glycine max with 8 samples.

Results

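The PHT1 family comprises the plasma-membrane phosphate transporters of plants, which carry inorganic phosphate into the cell together with protons. A set of 7 soybean (Glycine max) loci of this family was followed through mature leaves, matched by gene ID to the deposited table. The table listed 6 of the 7 among its 31785 genes. The seventh, Glyma.10G036800.Wm82.a4.v1, is not listed there and was not analysed here. The leaves came from wild type (WT) and from the line labelled OX5, with 4 libraries each, and both lines had sufficient phosphorus and were at R6, when the seeds fill the pods. The labels do not say what OX5 carries, how it was made or how old the plants were. Nor is it stated that libraries of 1 line are separate plants, and p-values therefore reflect the spread between these samples alone, which may be technical.

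In plants, PHT1 proteins take up phosphate at the root surface and also move it between organs, including out of ageing leaves towards growing seeds. Their genes are best known for induction under phosphate starvation, through transcription factors of the PHR class that are held back by SPX proteins when phosphate is ample. PHT1 proteins reach the plasma membrane with the help of the trafficking factor PHF1 and are removed through the ubiquitin enzyme PHO2, so transcript level is only one layer of their control. This background comes largely from Arabidopsis and rice.

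The RefSeq gene table of assembly Glycine_max_v4.0 holds 14 symbols of the form PHT1 with a number, on 8 chromosomes. Of these, 4 are on chromosome 10, 3 on chromosome 20, 2 on chromosome 14 and 1 each on chromosomes 2 and 7, the chromosomes that appear in the IDs of the 7 loci. The IDs place 3 of the loci on chromosome 10 and 1 each on chromosomes 2, 7, 14 and 20. None of the 7 IDs could be matched to a RefSeq entry, so the loci are called by their IDs, and no individual transport role is given to any of them. In the same table PHT1-6 and PHT1-1 stand next to each other on chromosome 10, and PHT1-5 and PHT1-10 on chromosome 20, with 0 genes between them. How reads shared by near-identical copies were counted is not given in the sources used here, so the level of any 1 locus may include reads of a copy or lack its own.

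Levels are in FPKM, a fragment count divided by gene length and by library depth, which allows levels of different genes to be set side by side. The FPKM steps gave back whole reads, 17536942 to 19156866 per library over all listed genes. The OX5 libraries fell into pairs over all genes: on the first principal component, with 44.8% of the variance, OX5 replicates 1 and 2 stood at 69.8 and 88.6, and the other 6 libraries between −40.5 and −12.6. The component of rank 2 held 20.6% and set the remaining OX5 pair apart. Replicate 3 of that line reached 34.4 there and replicate 4 reached 68.4, while all other libraries fell from −25.4 to −5.56. On the component of rank 3, with 17.0%, WT replicates 1 and 4 formed the ends at −55.4 and 56.5. Gene names were not tied to IDs, so the leaf label was not checked against named markers.

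A single locus supplied most of the leaf transcript of the 6 listed PHT1 loci. Glyma.10G186500.Wm82.a4.v1, on chromosome 10, had 145 ± 5.24 FPKM in WT and 147 ± 25.7 FPKM in OX5 (n = 4 each, SD), and ranked 438th by mean level among the 31785 listed genes. Glyma.20G204000.Wm82.a4.v1, on chromosome 20, followed with 43.4 ± 2.74 FPKM in WT and 47.1 ± 4.56 FPKM in OX5 (n = 4 each, SD). Glyma.07G222700.Wm82.a4.v1, on chromosome 7, came next at 9.11 ± 2.28 FPKM in WT and 9.20 ± 0.942 FPKM in OX5 (n = 4 each, SD). The other 3 listed loci had mean levels of 3.13, 1.28 and 0.396 FPKM over all libraries.

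**Figure D1:**
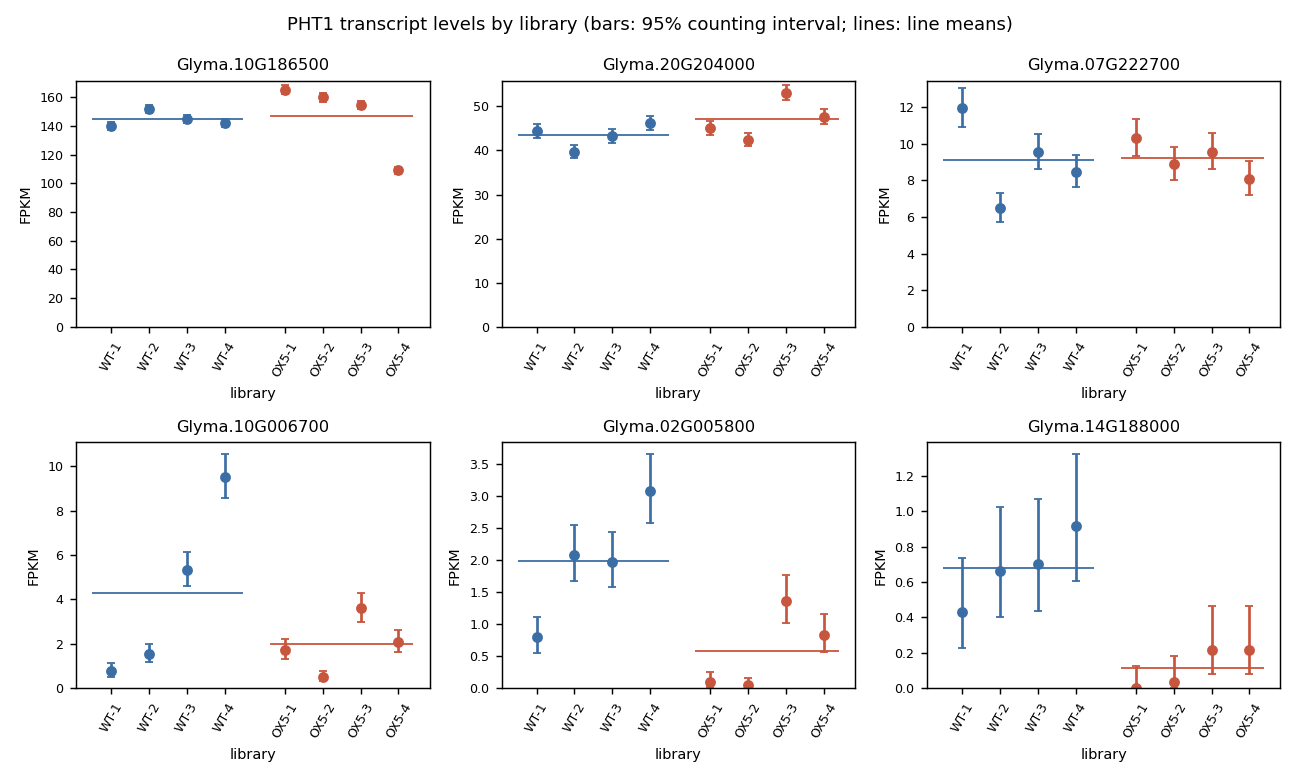
FPKM (vertical axes, linear, from 0) of each listed PHT1 locus in the 4 WT (blue) and 4 OX5 (red) libraries; bars are exact 95% Poisson intervals of the reads and horizontal lines are line means. The ranges of the 2 lines overlap at every locus except Glyma.14G188000. There every OX5 value, 0 to 0.214 FPKM, lies below every WT value, 0.431 to 0.916 FPKM.

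The order of levels held in all 8 libraries among the top 3 loci. Glyma.07G222700.Wm82.a4.v1 was above Glyma.10G006700.Wm82.a4.v1 in 7 of 8 libraries, the exception being WT replicate 4. Glyma.10G006700.Wm82.a4.v1 was above Glyma.02G005800.Wm82.a4.v1 in 6 of 8, the exceptions being WT replicates 1 and 2. The difference between these neighbours in the order was not tested. Glyma.02G005800.Wm82.a4.v1 was above Glyma.14G188000.Wm82.a4.v1 in 8 of 8, although in OX5 replicates 1 and 2 both rested on 4 reads or fewer.

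Together the 6 loci summed to 204 ± 5.10 FPKM in WT and 206 ± 25.9 FPKM in OX5 (n = 4 each, SD), a ratio of the means of 1.01. Glyma.10G186500.Wm82.a4.v1 made up 70.9% ± 3.10 of this sum in WT and 71.1% ± 4.81 in OX5 (n = 4 each, SD). Glyma.20G204000.Wm82.a4.v1 made up 21.3% ± 1.23 in WT and 23.1% ± 3.90 in OX5, and Glyma.07G222700.Wm82.a4.v1 4.47% ± 1.19 and 4.48% ± 0.287 (SD, n = 4 each). The 3 least abundant loci together held 1.01% to 6.44% of the sum in WT libraries and 0.276% to 2.33% in OX5 libraries, ranges that overlap.

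**Figure D2:**
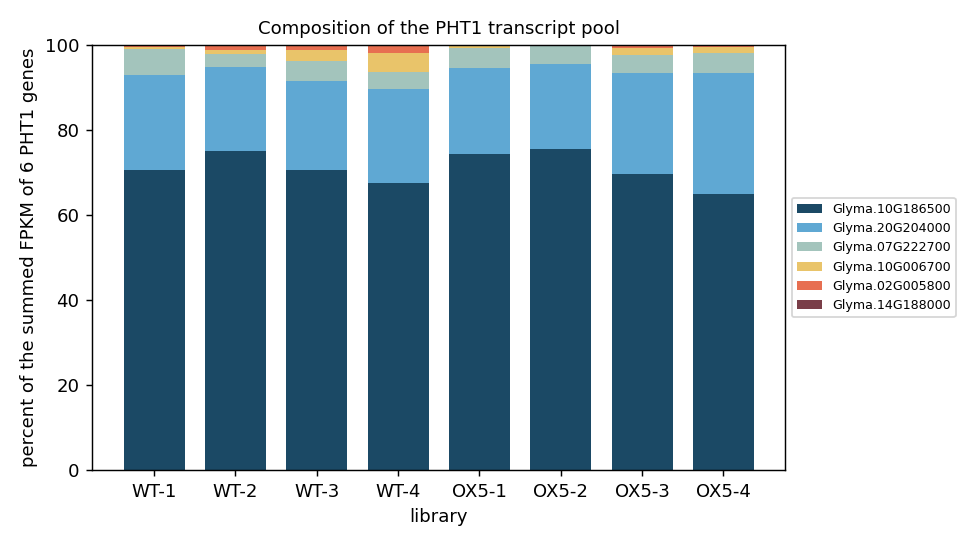
Share of each listed PHT1 locus in the summed FPKM of the 6 loci (vertical axis, percent) for every library. Glyma.10G186500 fills 65.0% to 75.5% of each bar, and the 3 least abundant loci reach their widest share, 6.44%, in WT replicate 4.

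None of the 5 loci abundant enough to be tested, with a mean of at least 0.5 FPKM, passed an adjusted p of 0.05 between OX5 and WT in limma's test on log2(FPKM + 1) with Benjamini-Hochberg adjustment over all 30424 genes tested. Over all tested genes 2.40% passed, 1.38% above WT and 1.01% below. At an unadjusted p under 0.05 limma had 1 of the 5 loci, where 21.7% of all tested genes stood. Limma-voom on the recovered reads called 0 of 5 at the adjusted threshold, where it called 1.43% of all tested genes. The median log2 fold change was 0.01 over the 5 loci and 0.04 over all tested genes. In whole leaves, fewer cells of a type that expresses a gene and less RNA per cell cannot be told apart.

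Glyma.10G186500.Wm82.a4.v1 was the steadiest of the loci in WT and differed most between OX5 libraries among the 3 abundant ones. It measured 140, 152, 145 and 142 FPKM in the WT libraries in order of replicate number, from 10409 to 11301 reads. The OX5 libraries, in the same order, measured 165, 160, 155 and 109 FPKM, from 7536 to 12051 reads. OX5 replicates 1, 2 and 3 were above every WT library and OX5 replicate 4 below every one, so the lines overlapped through that 1 library. The log2 fold change was 0.01 with a 95% interval of −0.34 to 0.35 (limma adjusted p = 0.982), and without OX5 replicate 4 it was 0.14, with an interval of −0.11 to 0.40 (limma adjusted p = 0.454). The direction turned with the scaling, to −0.04 with median-ratio size factors and −0.05 when libraries were rescaled to equal summed FPKM.

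The WT values of this locus had a coefficient of variation of 3.62%, where counting alone gives 0.963% at its depth. Among 1179 genes within 2-fold of its mean level, 3.31% had a smaller SD of log2(FPKM + 1) in WT, and 53.3% had a smaller one in OX5. The genes with the most similar course over the 8 libraries, of 17998 with a mean of at least 5 FPKM, were Glyma.02G146500.Wm82.a4.v1 with a Pearson r of 0.970 and Glyma.16G128300.Wm82.a4.v1 with one of 0.966. Both of these had their lowest value in OX5 replicate 4, at 3.30 and 6.19 FPKM, where this locus was also lowest. They were chosen by that likeness, so the shared low is no separate result. These r values describe libraries that share their line and are the highest of many, so they are given without a test.

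Glyma.20G204000.Wm82.a4.v1 differed little between libraries of either line. It measured 44.4, 39.7, 43.3 and 46.3 FPKM in the WT libraries in order of replicate number. The OX5 libraries, in the same order, measured 45.1, 42.4, 53.1 and 47.7 FPKM. The lines overlapped, with OX5 replicates 3 and 4 above every WT library and WT replicate 2 the lowest of all. The log2 fold change was 0.11 with a 95% interval of −0.13 to 0.35 (limma adjusted p = 0.580). Its coefficient of variation was 6.31% in WT and 9.68% in OX5, against 1.82% and 1.79% from counting alone.

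The balance of the top pair of loci differed between OX5 libraries. Glyma.10G186500.Wm82.a4.v1 stood at 3.15, 3.82, 3.35 and 3.07 times the FPKM of Glyma.20G204000.Wm82.a4.v1 in WT replicates 1 to 4. In OX5 replicates 1 to 4 the ratio of their FPKM was 3.66, 3.76, 2.91 and 2.29. Both OX5 replicates 3 and 4 lay below the lowest WT ratio, and OX5 replicates 1 and 2 lay within the WT range. The mean ratio was 3.35 ± 0.337 in WT and 3.16 ± 0.693 in OX5 (n = 4 each, SD), a difference smaller than the spread between libraries.

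Glyma.07G222700.Wm82.a4.v1 measured 12.0, 6.48, 9.53 and 8.46 FPKM in the WT libraries in order of replicate number. The OX5 libraries, in the same order, measured 10.3, 8.87, 9.56 and 8.08 FPKM. All OX5 values lay inside the WT range, whose ends were WT replicates 2 and 1. With 270 and 498 reads, those ends had counting intervals of 5.73 to 7.30 and 10.9 to 13.1 FPKM, which do not overlap. The log2 fold change was 0.04 with a 95% interval of −0.35 to 0.43 (limma adjusted p = 0.925), and its direction turned to −0.01 with either median-ratio size factors or rescaling to equal sums.

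**Figure D3:**
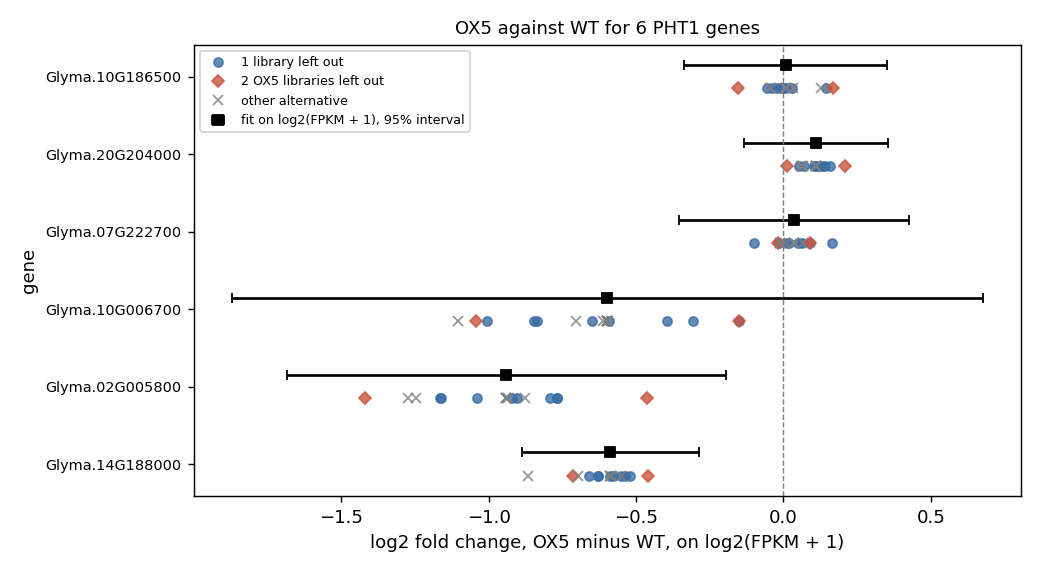
Log2 fold change of OX5 minus WT on the log2(FPKM + 1) scale (horizontal axis) for the 6 listed loci, with the 95% interval of the limma fit in black and alternative fits below it; the fits with another pseudocount and on reads are on other scales and are not drawn. The 3 abundant loci lie between 0.01 and 0.11, the 3 least abundant between −0.94 and −0.59, and Glyma.14G188000 is shown from the fit without a filter on low values.

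Of the 6 listed loci, 3 had a lower mean in OX5 than in WT, and these were the 3 least abundant. Their means were lower by 2.18, 3.40 and 5.87 times in the ratio of the means, and none passed the adjusted threshold as tested. Single libraries moved these ratios: that of Glyma.10G006700.Wm82.a4.v1 was 1.30 without WT replicate 4, and that of Glyma.02G005800.Wm82.a4.v1 was 6.11 without OX5 replicate 3. All 3 had their lowest WT value in replicate 1 and their highest in replicate 4, the libraries at the ends of that component of rank 3. That pattern was met by 2 of the 5 tested loci and by 20.8% of all tested genes. In OX5, replicates 1 and 2 were both below replicates 3 and 4 at these 3 loci and at Glyma.20G204000.Wm82.a4.v1. That was so at 3 of the 5 tested loci and at 20.6% of all tested genes, while the reverse held for 46.2% of all tested genes and, among the loci, for Glyma.10G186500.Wm82.a4.v1. The part that the make-up of these libraries has in the values was not tested.

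Glyma.10G006700.Wm82.a4.v1, on chromosome 10, measured 0.781, 1.54, 5.35 and 9.52 FPKM in the WT libraries in order of replicate number. The OX5 libraries, in the same order, measured 1.71, 0.505, 3.60 and 2.06 FPKM. WT replicates 3 and 4 were above every OX5 library, and WT replicates 1 and 2 were below 3 of the 4 OX5 libraries. The means were 4.30 ± 4.02 FPKM in WT and 1.97 ± 1.28 FPKM in OX5 (n = 4 each, SD). The log2 fold change was −0.60 with a 95% interval of −1.87 to 0.68 (limma adjusted p = 0.569). Without WT replicate 4 it was −0.15, and it was also −0.15 without OX5 replicates 1 and 2.

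This locus varied more within WT than nearly all genes of its level. Its highest WT value was 12.2 times its lowest, from 358 and 29 reads, with counting intervals of 8.56 to 10.6 and 0.523 to 1.12 FPKM. The SD of log2(FPKM + 1) in WT was 1.18, where the median of 9899 genes within 2-fold of its mean level was 0.23, and 99.5% of those genes had a smaller SD. In OX5 the SD was 0.67, larger than that of 89.7% of the same genes.

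Glyma.02G005800.Wm82.a4.v1, on chromosome 2, measured 0.794, 2.08, 1.98 and 3.09 FPKM in the WT libraries in order of replicate number, from 34 to 134 reads. The OX5 libraries, in the same order, measured 0.0973, 0.0461, 1.36 and 0.831 FPKM, from 4, 2, 54 and 33 reads. WT replicates 2, 3 and 4 were above every OX5 library, while WT replicate 1 lay below OX5 replicates 3 and 4, so the lines overlapped. The means were 1.98 ± 0.939 FPKM in WT and 0.583 ± 0.629 FPKM in OX5 (n = 4 each, SD).

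Of the 5 tested loci this was the one with an unadjusted p under 0.05. Its log2 fold change was −0.94 with a 95% interval of −1.68 to −0.20 (limma adjusted p = 0.145), and by p it ranked 3936th of 30424 genes. The size depends on the scale, since log2(FPKM + 1) understates the change of low genes: it was −2.09 with a pseudocount of 0.1 FPKM (limma adjusted p = 0.168) and −2.67 in limma-voom on the recovered reads (adjusted p = 0.155). Without OX5 replicates 3 and 4 it was −1.42 (limma adjusted p = 0.0239), in a fit that called 18.1% of all tested genes. Without OX5 replicates 1 and 2 it was −0.46 (limma adjusted p = 0.454), where 0.795% of all genes were called. With library quality weights it was −1.27 (limma adjusted p = 0.00576), where 31.2% were called.

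**Figure D4:**
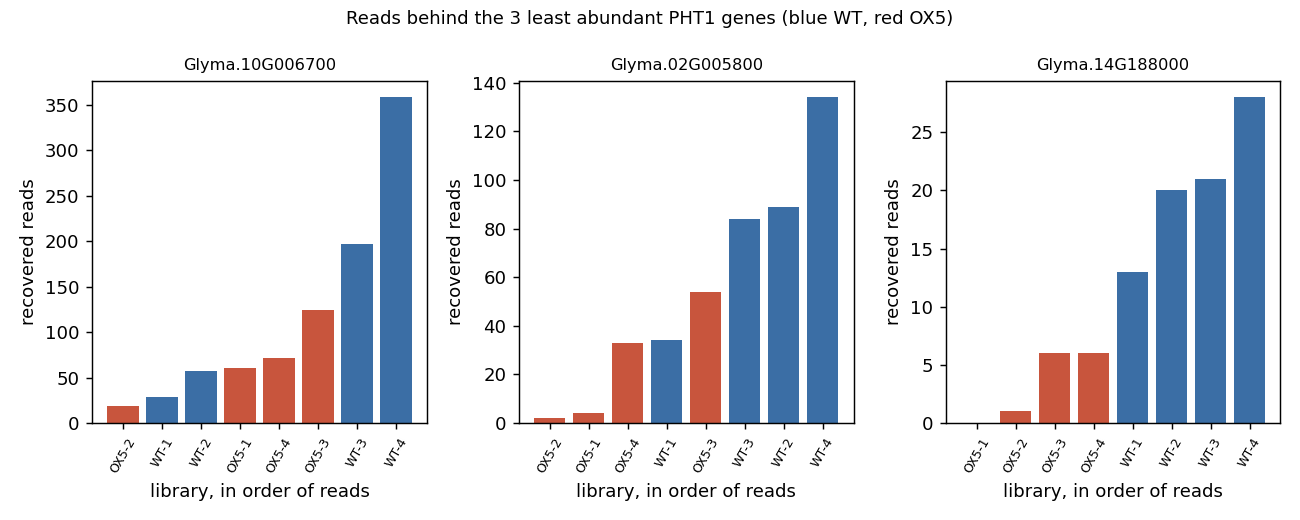
Recovered reads (vertical axes, from 0) of the 3 least abundant loci, with libraries ordered by reads within each panel and coloured by line. At Glyma.02G005800 the 2 lowest libraries are OX5 replicates 2 and 1 with 2 and 4 reads, at Glyma.14G188000 the 4 OX5 libraries come first with 0 to 6 reads, and in every panel WT replicate 4 is the highest.

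Glyma.14G188000.Wm82.a4.v1, on chromosome 14, was the locus of the 6 at which the lines did not overlap. It measured 0.431, 0.662, 0.701 and 0.916 FPKM in the WT libraries in order of replicate number, from 13, 20, 21 and 28 reads. The OX5 libraries, in the same order, measured 0, 0.0327, 0.214 and 0.214 FPKM, from 0, 1, 6 and 6 reads. All OX5 values lay below all WT values, as for 5.35% of tested genes. With either line the higher, the lines did not overlap at 14.2% of tested genes, so 1 of 6 loci is near the background. Both shares are over genes that pass the filter, which this locus does not. In OX5 replicate 1 a count of 0 allows up to 0.104 FPKM, the level of 3 reads, and the two-sided 95% interval drawn for that count reaches 0.127 FPKM. Both limits cover counting error only.

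The line means of this locus were 0.677 ± 0.199 FPKM in WT and 0.115 ± 0.115 FPKM in OX5 (n = 4 each, SD), with 82 and 13 reads over all libraries of a line. Its mean over the 8 libraries was under the minimum of 0.5 FPKM, so it has no test in the main comparison. In the fit without that filter, over 31785 genes, the log2 fold change was −0.59 with a 95% interval of −0.89 to −0.29 (limma adjusted p = 0.0572), where 2.29% of all genes were called. Over 18 further alternatives without the filter the adjusted p ran from 0.00328 to 0.165 and passed 0.05 in 3, with median-ratio size factors (limma adjusted p = 0.0490), with library quality weights, and without OX5 replicates 3 and 4. Those 3 fits called 3.02%, 29.8% and 18.0% of all genes. On the log2(FPKM + 1) scale the change of so low a gene is understated, and on recovered reads limma-voom gave a log2 fold change of −3.06 (limma-voom adjusted p = 0.102), where 1.33% were called.

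Of the 4 listed loci to each side of each of the 6, taken in order of ID, 0 of 48 had a limma adjusted p under 0.05, where 2.40% of all tested genes did, so a count near 0 is near the background. The lowest adjusted p was 0.0610, beside Glyma.14G188000.Wm82.a4.v1. At an unadjusted limma p under 0.05 there were 6 of the 48, against 21.7% of all tested genes. Limma-voom on the recovered reads called 0 of the 48 and 1.43% of all tested genes.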

How the data were processed

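The authors deposited 1 table of FPKM values with 1 column per library, and 0 columns of per-sample values were left unused. Per the submitters' processing notes, the tools were HISAT2 2.1.0, HTSeq 0.6.0, Bowtie2 2.2.3, CASAVA and TopHat2, with no step assigned to any. For genome build, strand setting and shared reads, nothing was given in the sources used here. The loci, lists and tests were chosen with earlier results of these data known. All 7 given loci were named by rule. Lists of other phosphate genes and of tissue markers were to be chosen by description and were not used, since no description could be tied to an ID.

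Whole reads were recovered from the FPKM steps for 100% of 31785 genes, 99% of them within 0.00759 reads of whole numbers in every library. Lines were compared on log2(FPKM + 1) in limma 3.58.1 under R 4.3.3, with a variance trend, for genes averaging at least 0.5 FPKM, with Benjamini-Hochberg adjustment and no block. The fit and the recovery were tested on simulated data. The simulation for the fit changed only genes with more reads than the least abundant loci, so it does not bear on them. It drew the libraries of a line independently, at the same dispersion for every gene. It therefore does not bear on the OX5 pairs either. Intervals of single libraries are exact Poisson intervals at 95% and cover counting error only. Alternatives were other pseudocounts, filters, scalings, weights, robust variances, a replicate block and left-out libraries. Limma-voom on recovered reads, and all alternatives for the locus under the filter, were added after seeing the data. Replicate libraries differed by more than counting noise, with a chi-square per degree of freedom of 10.9 or more in every pair. Other tools were pandas 2.3.3, scipy 1.17.1, numba 0.67.0 and numpy 2.4.6 in Python 3.11.15.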

Additional observations from a re-analysis of the deposited data

Results flagged for a closer look

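The 6 listed PHT1 loci together made up 0.0269% of all FPKM in OX5 replicate 4, far below the 0.0356% to 0.0372% of the other OX5 libraries. The WT libraries lay between 0.0333% and 0.0368%. Lone extreme values were sought in 18 groups of 4, this was the 1 found, and by chance about 1 group in 20 shows one. There Glyma.10G186500.Wm82.a4.v1 had 109 FPKM, against 155 to 165 FPKM in the other OX5 libraries, while Glyma.20G204000.Wm82.a4.v1 had 47.7 FPKM, inside the range of the others. The library also had the highest summed FPKM of all, 623720, and the highest value on the component of rank 2 over all genes, 68.4.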

How the results depend on the processing

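Among the 5 loci that pass the filter, the number called was 0 in 18 of 20 alternative fits, including each with 1 library left out. It was 1 with library quality weights, where 31.2% of all genes were called, and 1 without OX5 replicates 3 and 4, where 18.1% were, so neither count stands apart from the background. In both, this was Glyma.02G005800.Wm82.a4.v1, at −1.27 and −1.42; its log2 fold change ran from −1.16 to −0.77 without 1 library and from −2.67 to −0.46 over all its alternatives. Glyma.14G188000.Wm82.a4.v1 enters these counts only in the fit without a filter, where it was not called; with the filter removed in the other fits too, it passed at −0.59 with median-ratio size factors, −0.70 with library quality weights and −0.72 without OX5 replicates 3 and 4, and ran from −0.66 to −0.52 without 1 library and from −3.06 to −0.46 over all its alternatives. The direction of Glyma.10G186500.Wm82.a4.v1 turned to −0.0423 with median-ratio size factors, −0.0458 after rescaling to equal sums and −0.1528 without OX5 replicates 1 and 2, and ran from −0.0539 to 0.1438 without 1 library. That of Glyma.07G222700.Wm82.a4.v1 turned to −0.0099, −0.0114 and −0.0182 in the same fits, and ran from −0.0995 to 0.1645 without 1 library. Glyma.10G006700.Wm82.a4.v1 stayed below 0, between −1.10 and −0.15, and Glyma.20G204000.Wm82.a4.v1 above 0, between 0.01 and 0.21, and neither passed in any of 20 fits. The ratio of summed FPKM ran from 0.956 to 1.07. Limma-voom on recovered reads and the pseudocount of 0.1 FPKM put fold changes on scales other than log2(FPKM + 1). Without those fits, Glyma.02G005800.Wm82.a4.v1 ran from −1.42 to −0.46 and Glyma.14G188000.Wm82.a4.v1 from −0.87 to −0.46. Why fits on the same scale differ was not tested. Glyma.02G005800.Wm82.a4.v1 could not be fitted at a mean of at least 2 FPKM. Depth limits the least abundant locus, which had at most 28 reads in a library.

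With the replicate number as a block, 0 loci were called. The log2 fold changes were 0.0074, 0.1112, 0.0358, −0.5973, −0.9398 and −0.5867 in order of abundance. This block cannot move them, since each replicate number has a single library in each line. Over all genes the block left 56 calls in place of 729. Across genes, same-numbered WT and OX5 libraries deviated from their line means with r of −0.056, 0.071, 0.13 and −0.061. Differently numbered libraries had r from −0.17 to 0.11. These values do not settle whether samples are paired. The numbers were not taken to pair them, since they are not said to mark anything shared.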
